A study of Mus musculus with 2 samples.

Results

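The microRNA genes Mir10a, Mir10b, Mir196a-1, Mir196a-2, Mir196b and Mir615 lie inside the Hox clusters, and their levels were read in hearts of newborn mice. They were taken by gene name in the GENCODE M21 annotation, and all 6 were found among the 2202 microRNA genes of the count files. The series held 2 small RNA libraries of heart tissue from female B6CASTF1/J mice aged 4 days, a hybrid of C57BL/6J and CAST/EiJ parents. The labels give replicate 1 the animal number 3 and replicate 2 the animal number 4. RNA under 30 nt was selected. Both libraries belonged to 1 group with no treatment, so no condition was compared. The levels below are described, and a difference between the libraries had no replicate check.

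Hox genes encode transcription factors that specify position along the head-to-tail axis, and their order within a cluster follows the order of their expression along that axis. Low-numbered genes at the 3′ end of a cluster act toward the head, and high-numbered genes at the 5′ end act toward the tail. MicroRNAs pair through bases 2 to 8 of the mature strand, the seed, with transcripts whose translation or stability they lower. The miR-10 microRNAs are encoded next to Hox4 genes. The miR-196 microRNAs are encoded next to Hox9 genes and are known in mouse embryos to direct cleavage of Hoxb8 transcripts. Mir615 is encoded inside Hoxc5.

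Positions are given in mm10, counted from 1. Mir10a (ENSMUSG00000065519.1) lies on chromosome 11, 96317165 to 96317274, plus strand, 1495 bp upstream of the Hoxb4 coding sequence, in no annotated intron or exon of another gene. Mir10b (ENSMUSG00000065500.3) lies on chromosome 2, 74726070 to 74726137, plus strand, 1141 bp upstream of the Hoxd4 coding sequence. It falls in introns of annotated Hoxd4 and Hoxd3 transcripts. The 2 miR-10 genes thus hold matching places in the Hoxb and Hoxd clusters.

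Mir615 (ENSMUSG00000076010.1) lies on chromosome 15, 103014910 to 103015001, plus strand, in the intron of Hoxc5 between its coding exons. Mir196b (ENSMUSG00000065443.1) lies on chromosome 6, 52230081 to 52230165, minus strand, between the coding sequences of Hoxa10 (2343 bp away) and Hoxa9 (3976 bp away). It falls in an intron of 1 annotated noncoding transcript of Hoxa9 and in exons of 2 others. Mir196a-2 (ENSMUSG00000065488.2) lies on chromosome 15, 102973350 to 102973434, plus strand, between Hoxc10 (2277 bp) and Hoxc9 (8218 bp), in an intron of a noncoding Hoxc5 transcript. Mir196a-1 (ENSMUSG00000065546.1) lies on chromosome 11, 96265164 to 96265265, plus strand, between Hoxb13 (68937 bp) and Hoxb9 (6276 bp), in no other annotated gene. All 6 are transcribed in the direction of the Hox genes around them. The clusters hold 1 further annotated microRNA gene, Gm44463 in the Hoxd cluster, on the minus strand against the Hoxd genes, which had 0 counts in both libraries.

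**Figure D1:**
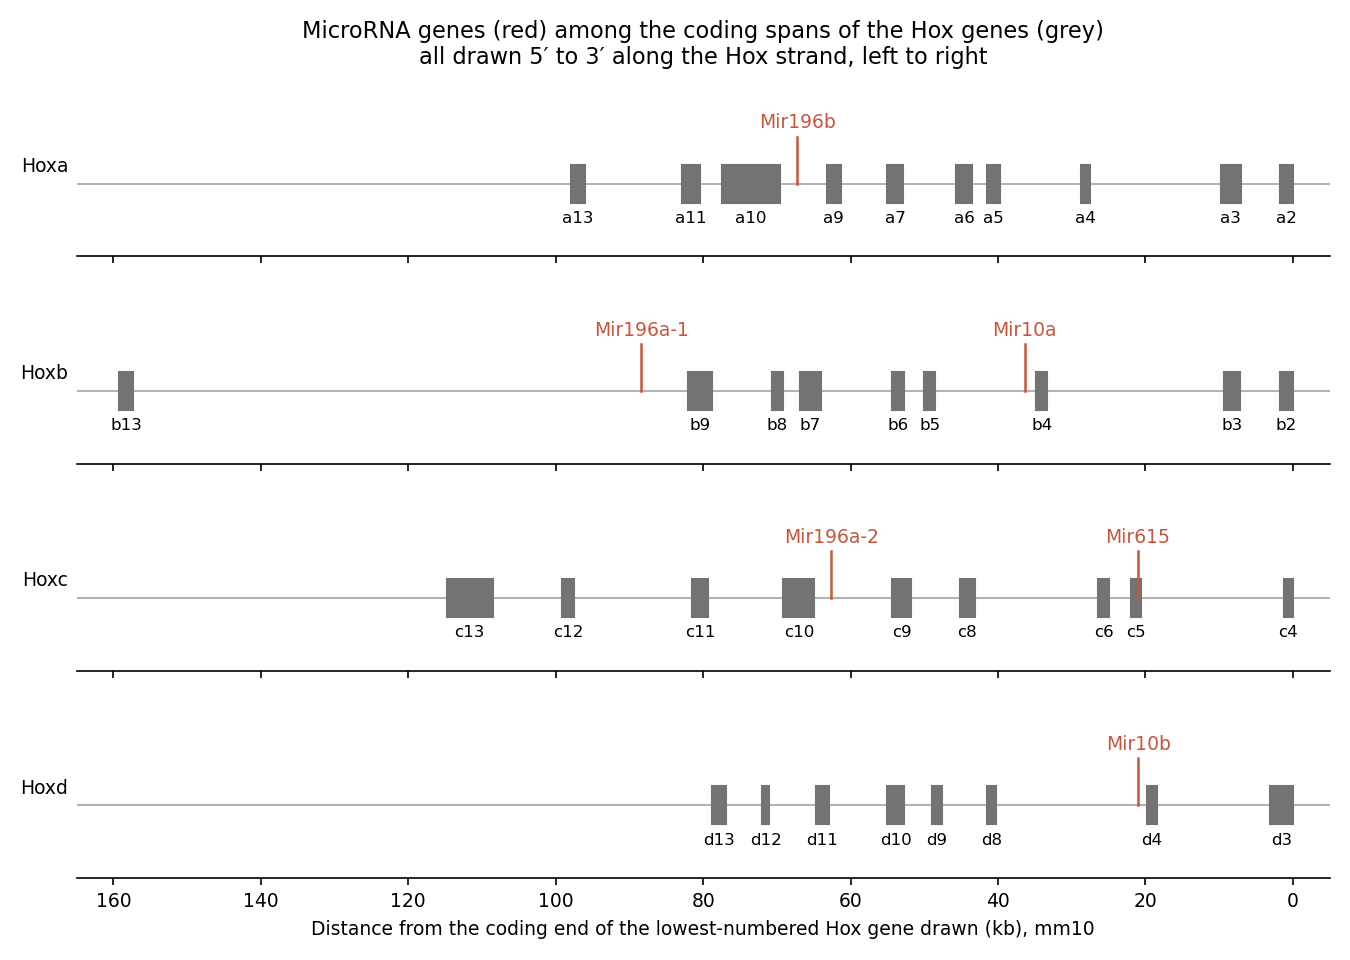
Places of the 6 microRNA genes (red) among the coding spans of Hox genes of groups 2 to 13 (grey), 1 row per cluster; the x axis is the distance in kb from the coding end of the lowest-numbered Hox gene drawn, along the Hox strand. Mir10a and Mir10b stand just upstream of Hoxb4 and Hoxd4, Mir615 inside Hoxc5, and the 3 Mir196 genes upstream of Hoxa9, Hoxb9 and Hoxc9.

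The mature sequences show which members can be told apart in counts of short reads. RefSeq (GRCm38.p6) gave mature strands for 6 of 6 genes, 11 distinct sequences in all. The 5p strands of the miR-10 and miR-196 genes and both strands of Mir615 are shown with the seed in capitals, beside 2 relatives of miR-10:
mmu-miR-10a-5p: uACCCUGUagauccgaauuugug
mmu-miR-10b-5p: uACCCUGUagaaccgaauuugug
mmu-miR-99a-5p: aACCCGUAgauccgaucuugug
mmu-miR-100-5p: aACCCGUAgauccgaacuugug
mmu-miR-196a-5p: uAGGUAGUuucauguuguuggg
mmu-miR-196b-5p: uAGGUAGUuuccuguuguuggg
mmu-miR-615-5p: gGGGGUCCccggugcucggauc
mmu-miR-615-3p: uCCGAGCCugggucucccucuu

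The member strands shown form 4 seed groups. The seed ACCCUGU was held by miR-10a-5p and miR-10b-5p and by no other of the 1679 mature mouse names in the table. The seed AGGUAGU was likewise held by miR-196a-5p and miR-196b-5p and by no other. Each strand of Mir615 had a seed of its own. Counted from 1 at the 5′ end, miR-10a-5p and miR-10b-5p differ by U12A and miR-196a-5p and miR-196b-5p by A12C, so in both pairs the difference lies outside the seed. The relatives miR-99a-5p and miR-100-5p have the seed ACCCGUA.

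Mir196a-1 and Mir196a-2 carry the same mature 5p strand, and this limits what their counts can show. The stretch of 22 nt that both hairpins share is in capitals:
Mir196a-1: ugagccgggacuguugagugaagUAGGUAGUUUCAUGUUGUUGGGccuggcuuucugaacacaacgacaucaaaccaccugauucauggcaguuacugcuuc
Mir196a-2: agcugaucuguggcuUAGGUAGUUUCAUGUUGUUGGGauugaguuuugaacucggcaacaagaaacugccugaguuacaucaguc

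A full-length read of miR-196a-5p matches both hairpins, and the files count multi-mapped reads for no gene. The counts of Mir196a-1 and Mir196a-2 therefore do not measure how much miR-196a the hearts held. The other members have no such partner among the 2202 hairpins. The longest stretch shared with another hairpin was 15 nt for Mir10a and Mir10b (with each other), 14 nt for Mir615 (with Mir6916) and 12 nt for Mir196b. The sequence of the genome outside these hairpins was not searched, and variants of the CAST parent were not examined.

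The miR-10 genes held nearly all counts of the group, and Mir196b and Mir615 were present at lower levels. The own-strand counts over all microRNA genes came to 6417302 in replicate 1 and to 5662222 in replicate 2. Levels are counts scaled to these totals (CPM). A limit of 3 counts, taken for a count of 0, is 0.467 CPM in replicate 1 and 0.530 CPM in replicate 2. In these samples of heart tissue, fewer cells of a type and less RNA per cell cannot be told apart.

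Mir10a had 4479 counts in replicate 1 and 5230 in replicate 2, which is 698 and 924 CPM, a mean of 811 ± 159.6 CPM (SD, n = 2). The gene ranked 91st and 78th of the 2202 genes. Mir10b had 3370 and 4079 counts, or 525 and 720 CPM, a mean of 623 ± 138 CPM (SD, n = 2), and ranked 98th and 85th. Mir10a lay above Mir10b within each library, although the Mir10a level of replicate 1 was below the Mir10b level of replicate 2. Both genes lay above 75.2 CPM, the median of the 373 genes detected, meaning 10 counts or more in both libraries.

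Mir196b had 442 counts in replicate 1 and 414 in replicate 2, or 68.9 and 73.1 CPM, with a mean of 71.0 ± 3.00 CPM (SD, n = 2). Mir615 had 215 and 69 counts, or 33.5 and 12.2 CPM, with a mean of 22.8 ± 15.1 CPM (SD, n = 2). Mir196b was close to the median of the detected genes and Mir615 was below it. Mir196b lay above Mir615 in both libraries, by 2.06-fold in replicate 1 and 6.0-fold in replicate 2.

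Mir196a-2 had 11 counts in replicate 1 and 1 in replicate 2, or 1.71 and 0.177 CPM. Mir196a-1 had 0 counts in replicate 1 and 1 in replicate 2. Of these values, the 11 counts lay above the limit of 3 counts and the others below it, with multi-mapped reads of the shared 5p strand missing from all. Of the 6 members, 4 were detected in the sense above. On the opposite strand all 6 had 0 counts in both libraries.

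**Figure D2:**
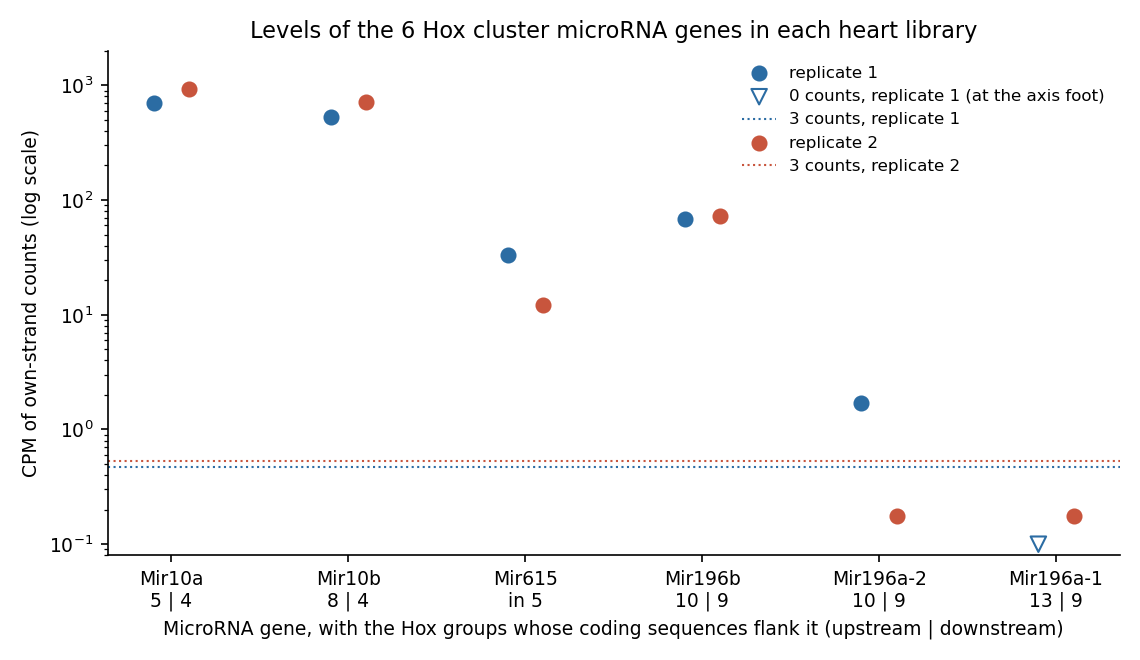
Level of each microRNA gene (x axis, with the Hox groups of the flanking coding sequences) in CPM on a log scale (y axis); points are the 2 libraries, dotted lines mark 3 counts in each, and the open triangle stands for 0 counts. Mir10a and Mir10b lie between 525 and 924 CPM, Mir196b and Mir615 between 12.2 and 73.1 CPM, and the Mir196a copies at 1.71 CPM or below.

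By Hox position, counts were highest at the Hox4 places. The miR-10 pair beside Hox4 genes held 92.2% of the members' counts in replicate 1, with an exact 95% Clopper-Pearson interval of 91.6 to 92.7. In replicate 2 the pair held 95.05% (94.6 to 95.5). The 3 Mir196 genes upstream of Hox9 genes held 5.32% (4.85 to 5.82) and 4.25% (3.86 to 4.67), without the multi-mapped reads of miR-196a. Mir615 inside Hoxc5 held 2.52% (2.20 to 2.88) and 0.705% (0.549 to 0.891). The order was the same in both libraries, but it did not follow position step by step, since Mir615 at a Hox5 place lay below Mir196b at a Hox9 place. The miR-10 pair had 17.3 times the counts of the 3 Mir196 genes in replicate 1 and 22.4 times in replicate 2. With the missing miR-196a reads, these folds and the pair's shares would be lower, by an amount that is not known. The order of the Hox4 and Hox9 places is thus an order of counts and not of microRNA amounts. These intervals cover counting error within a library and no difference between animals. They take reads as independent, so they are too narrow where reads are copies of the same molecule.

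The miR-10 genes, in matching places of the Hoxb and Hoxd clusters, had similar levels, while the 3 Mir196 genes had unequal counts. Mir10b made up 42.9% of the counts of both miR-10 genes in replicate 1 (41.8 to 44.04) and 43.8% in replicate 2 (42.8 to 44.8). The mean share was 43.4% ± 0.624 (SD, n = 2). A difference in this share between the hearts was not detectable at this depth. Mir10a exceeded Mir10b 1.33-fold and 1.28-fold. Per 100 nt of annotated hairpin the order was the other way, since the Mir10b hairpin is annotated with 68 nt and that of Mir10a with 110 nt: Mir10b had 772 and 1059 CPM per 100 nt and Mir10a 635 and 840. Their mature 5p strands have the same length of 23 nt. Mir196b made up 97.6% (95.7 to 98.8) and 99.5% (98.3 to 99.9) of the counts of the 3 Mir196 genes, which is an upper bound, because the reads of miR-196a-5p that match both copies are in neither count.

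As a share of the whole library, all 6 members were a small part of the heart's microRNA counts. They held 0.133% of the counts in replicate 1 (0.130 to 0.136) and 0.173% in replicate 2 (0.170 to 0.176), and 0.153% ± 0.0285 on average (SD, n = 2). Mir27a, Mir872 and Mir210 were the genes whose levels were nearest to those of Mir10a over the 2 libraries. Their distances in log2 CPM were 0.15, 0.20 and 0.26. Nearest to Mir10b were Mir146 (0.15), Mir210 (0.29) and Mir132 (0.37). With 2 libraries this likeness describes level and little else.

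The related miR-99, miR-100 and miR-125 genes, which belong to the same superfamily as miR-10 but lie outside the Hox clusters, were higher than both miR-10 genes in 4 of 6 cases (Mir99a, Mir99b, Mir100 and Mir125a). Mir99a had 32932 and 36594 CPM, 47.2 and 39.6 times the Mir10a level of the same library. Mir100 had 3353 and 3911 CPM, 4.80 and 4.23 times the Mir10a level. The miR-10 pair made up 2.16% (2.11 to 2.21) and 3.21% (3.14 to 3.27) of the summed counts of Mir10a, Mir10b, Mir99a, Mir99b and Mir100. Mir125b-1 (421 and 389 CPM) and Mir125b-2 (198 and 223 CPM) had fewer counts than either miR-10 gene, and their shared mature 5p strand is subject to the same loss of multi-mapped reads.

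Between the hearts, the members did not move together. Ratios are replicate 1 over replicate 2 with libraries scaled by TMM, 0.5 added to each count and the 95% interval of counting error, and a gene was called when past 2-fold. Of the 491 genes with at least 10 counts in the sum, 16.5% were past 2-fold, 7.13% higher in replicate 1 and 9.37% higher in replicate 2. Of 5 such members, 2 were past 2-fold, Mir615 and Mir196a-2, both higher in replicate 1. Mir196a-2 (11 and 1 counts) reached the minimum only through replicate 1, so its call and direction are no evidence of a difference. With Mir196a-2 counted among the 5 members, their median log2 ratio was −0.42, against −0.02 over all 491 genes. That median depends on Mir196a-2 and is not read as a shift of the members. Scaling by totals alone adds 0.33 to every log2 ratio and turns the split of called genes from 35 higher and 46 lower in replicate 1 to 67 higher and 31 lower.

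The miR-10 genes were lower in replicate 1 by almost the same amount, without passing 2-fold. The log2 ratio was −0.74 (−0.79 to −0.68) for Mir10a and −0.79 (−0.85 to −0.72) for Mir10b. Mir196b stood nearer to equality at −0.42 (−0.62 to −0.22). With scaling by totals these were −0.40, −0.46 and −0.09. Among the relatives, 0 of 6 were past 2-fold, from −0.55 for Mir100 to 0.74 for Mir99b.

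Mir615 went the other way, with a log2 ratio of 1.12 (0.73 to 1.54), or 2.17-fold higher in replicate 1. Its interval of counting error reaches below 2-fold. Its share of the counts of Mir615 and Mir196b was 32.7% (29.1 to 36.5) in replicate 1 and 14.3% (11.3 to 17.7) in replicate 2, a share that is the same under any library scaling. Mir196a-2, at 11 and 1 counts, had a ratio of 2.43 with an interval of counting error from 0.16 to 8.37.

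**Figure D3:**
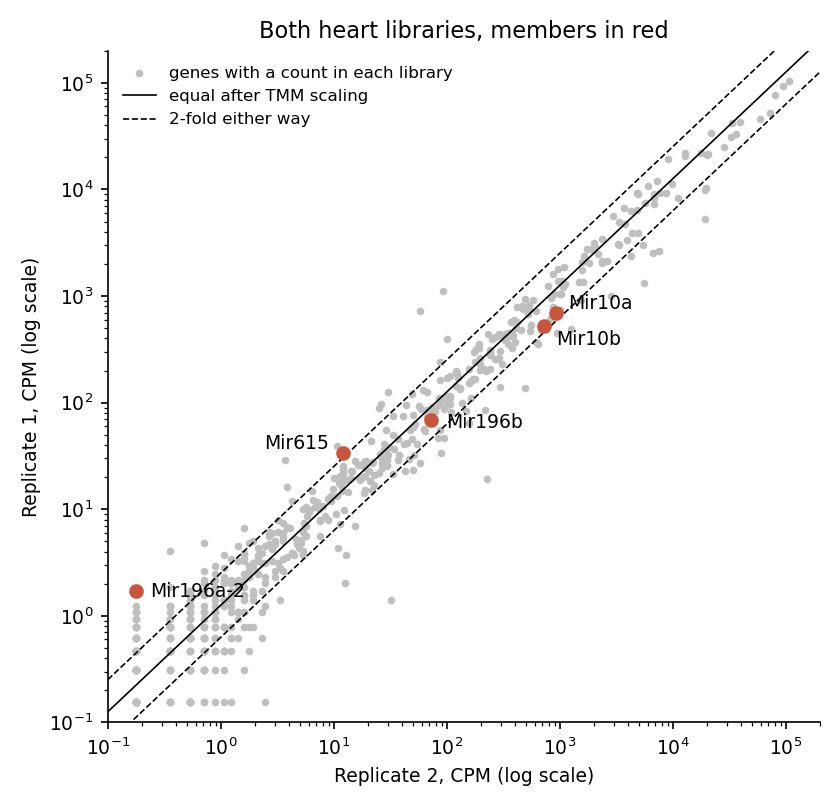
CPM in replicate 1 (y axis) against replicate 2 (x axis), both on log scales, for genes with a count in each library; the solid line marks equal levels after TMM scaling and the dashed lines 2-fold differences. Mir10a, Mir10b and Mir196b lie below the solid line within 2-fold, and Mir615 and Mir196a-2 lie above the upper dashed line.

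Genes known as markers of heart cell types also differed between the libraries. The heart muscle markers Mir208a, Mir208b and Mir499, which lie in myosin genes, were all detected and summed to 20993 CPM in replicate 1 and 19146 CPM in replicate 2. Within that sum they went different ways: Mir208a had 10883 and 6019 CPM (log2 ratio 0.52), Mir208b 7457 and 5640 CPM (0.07), and Mir499 2653 and 7487 CPM (−1.83, past 2-fold). The endothelial markers (1 of 2 detected) summed to 51830 and 73011 CPM, and the smooth muscle markers (2 of 2) to 47055 and 60331 CPM. The log2 ratios of Mir126a (−0.83), Mir143 (−0.69) and Mir145a (−0.58), of these 2 lists, were near those of the miR-10 genes. Mir126b, the undetected endothelial marker, had −0.15 at 4 and 3 counts. Such ratios were not particular to these lists. Of the genes nearest in level, Mir27a (−0.76), Mir210 (−0.76) and Mir146 (−0.82) had them too, and Mir872 (−0.47) and Mir132 (−0.39) less so. The skeletal muscle marker Mir206 had 718 and 58.5 CPM, and the erythroid markers Mir144 and Mir451a (2 of 2) summed to 489 and 126 CPM. Their log2 ratios were 3.28 for Mir206, 1.56 for Mir144 and 1.64 for Mir451a, against 1.12 for Mir615. This direction was not particular to them either, since 7.13% of the 491 genes were past 2-fold and higher in replicate 1. The epithelial markers (6 of 7) summed to 595 and 662 CPM, with Mir200c the highest in each library (420 and 284 CPM). Of that list Mir205 (log2 ratio −4.76), Mir203 (−1.69) and Mir200b (−1.45) were past 2-fold and higher in replicate 2. The rest were within 2-fold and went both ways: Mir200c (0.23), Mir141 (0.32), Mir200a (−0.36) and Mir429 (−0.76). Of the 6 neuronal markers, Mir124a-1, Mir124a-2, Mir124a-3 and Mir9-1 were at 0 in both libraries, and the list summed to 0.467 and 0.177 CPM. Those neuronal genes are copies of shared mature strands, so multi-mapped reads are missing from them. The part of these cell types in the levels of the Hox cluster microRNAs was not tested.

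**Figure D4:**
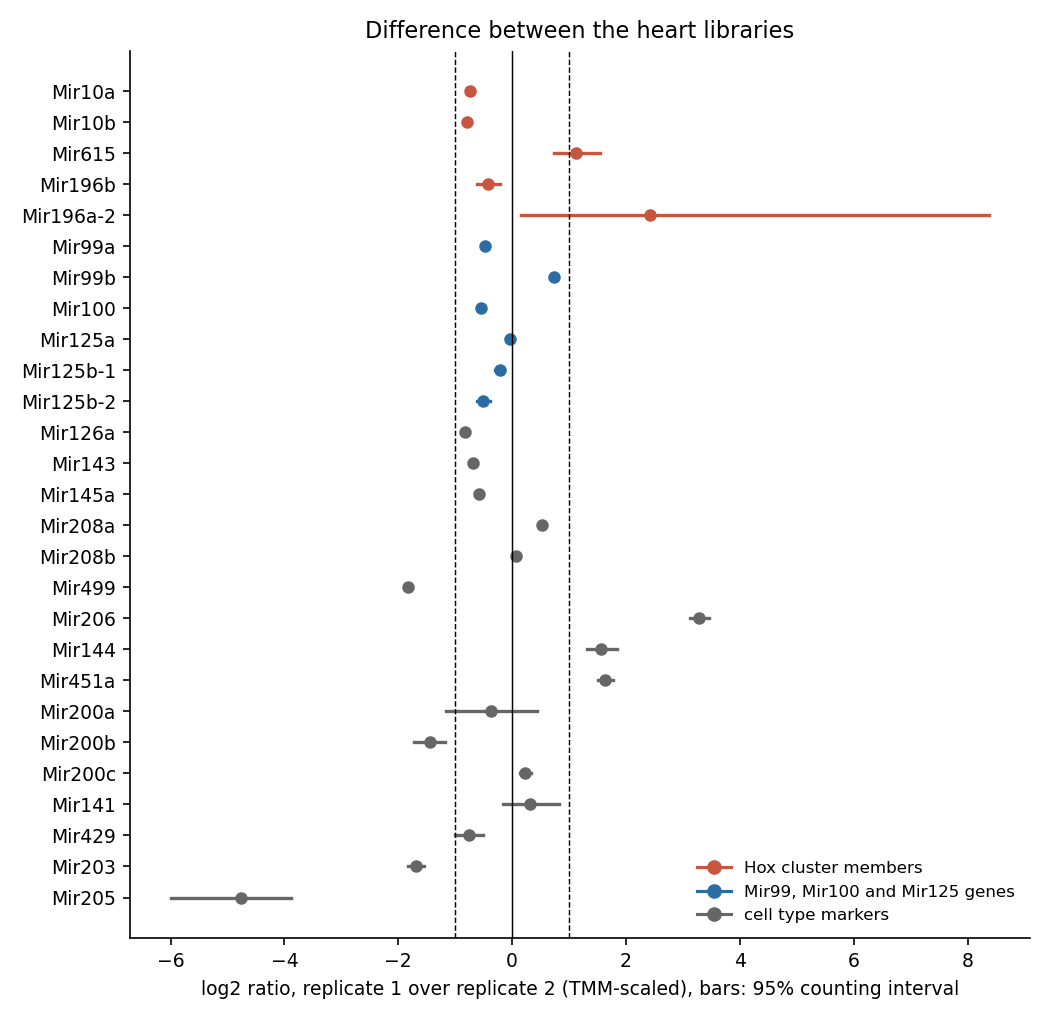
Log2 ratio of replicate 1 over replicate 2 (x axis, TMM-scaled) for the 5 members with at least 10 counts in the sum, 6 related genes and 16 cell type markers of endothelium, smooth muscle, heart muscle, skeletal muscle, red blood cells and epithelium; bars are 95% intervals of counting error and dashed lines mark 2-fold. Mir10a and Mir10b lie at −0.74 and −0.79, and Mir615 lies at 1.12.

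The miR-196 strands have 1 long complementary stretch among Hox transcripts, shown here because Hoxb8 is their best-known Hox target in mouse. The strands miR-196a-5p, miR-196b-5p, miR-10a-5p, miR-10b-5p and miR-615-3p were compared, and the other mature strands of the members were not. Each was set without gaps against the longest annotated 3′ UTR of every protein-coding gene, counting Watson-Crick and G:U pairs. The best Hox match of miR-196a-5p was in Hoxb8 (plus strand), chr11:96284888-96284909, with Watson-Crick pairs in capitals and the G:U pair in lower case:
Hoxb8 stretch: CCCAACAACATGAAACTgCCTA

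It paired at 22 of 22 bases with miR-196a-5p, 21 of them Watson-Crick. Of 20916 genes with such a UTR, 2 reached 22 pairs, Hoxb8 and Rps6ka2, and no other gene had over 17 Watson-Crick pairs in any window. With miR-196b-5p, the counted member of the family, the same stretch paired at 21 of 22 bases, 20 of them Watson-Crick. For 15 genes 21 pairs or more were found, Hoxb8 among them, and other genes had at most 18 Watson-Crick pairs. The miR-10 strands had no stretch of comparable whole-length pairing in a Hox UTR. The highest number in a Hox UTR was 18 of 23 pairs for both, Hoxa9 and Hoxb13 among them for miR-10a-5p and Hoxa10 and Hoxa7 for miR-10b-5p. That number was reached by 2230 genes for miR-10a-5p and by 1751 for miR-10b-5p. For miR-615-3p it was 17 of 22 pairs, Hoxb13, Hoxb1 and Hoxd10 among them, and 5190 genes reached it. Sites that pair with the seed alone were not searched. These numbers therefore do not show whether the miR-10 or miR-615 strands have Hox targets. A match of this kind describes sequence and does not show binding, and no messenger RNA was measured in these libraries.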

How the data were processed

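Small RNA libraries of 2 hearts were analysed as 1 group. The authors deposited 1 file per library with raw, unpooled counts for each microRNA gene. Per the file descriptions the build is mm10 and the annotation M21. The aligner, counter and trimming are not stated in the sources used. Separate columns hold counts for both strands, the gene's own strand (used here) and the opposite strand, a meaning inferred from the layout. Multi-mapped reads (39.6% of all reads in replicate 1 and 43.2% in replicate 2) are in no gene's count and stayed out of totals with the other summary entries. All 2202 identifiers matched M21.

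CPM used own-strand totals. Ratios used TMM factors of 1.12 and 0.891 (from edgeR 4.0.16 under R 4.3.3, over genes with at least 10 counts in the sum) and 0.5 added to each count. Shares carry exact Clopper-Pearson intervals at 95%, and ratios the exact conditional binomial interval. No hypothesis test was run, since the series has 1 group. Over 491 genes the counts of the libraries differed by a chi-square of 1054 per gene, so they are not 1 library deposited again, although repeat preparations of the same RNA could differ as much. They were counted as 2 samples because the labels number different animals, with the same donor entry. Depth limits precision as the intervals give. The ratio calculation was tested on simulated counts that held counting error alone. Such counts cannot check the ratios or intervals under the wider spread between these libraries. Sequence-dependent differences in library preparation were not corrected for.

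The members are picked by a rule on gene names that uses no measured value, but they and the lists were chosen with earlier results of these data known. Genes named are the 6 members, all other microRNA genes inside a Hox cluster, 6 related genes, fixed cell type markers, and the 3 genes nearest to each miR-10 gene in log2 CPM of both libraries. Genes named in the 3′ UTR comparison were chosen after their values were seen. Alternatives were DESeq2 1.42.0 size factors, totals alone, the both-strand column, other count minimums, 1 added to each count, multi-mapped reads in the total, and hairpin length. Python 3.11.15, scipy 1.17.1, pandas 2.3.3, numpy 2.4.6 and matplotlib 3.10.9 were used.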

Additional observations from a re-analysis of the deposited data

How the results depend on the processing

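No paired analysis was possible because the series has 1 group. Levels moved where an alternative changed the total that counts are divided by. With the both-strand column, whose total is smaller, the mean levels were 1014 CPM for Mir10a, 779 CPM for Mir10b and 88.7 CPM for Mir196b. With multi-mapped reads in the total these were 412, 316 and 36.2 CPM, and Mir615 had 11.9 CPM, against 22.8 CPM. The share of Mir10b in the miR-10 pair was 55.3% when counts were divided by hairpin length, an alternative chosen after seeing the data, which puts Mir10b above Mir10a. RNA under 30 nt was selected, and both mature 5p strands have 23 nt. Without this division Mir10a lay above Mir10b in each library. The number of genes past 2-fold was 280 without a minimum count and 44 with at least 10 counts in each library, against 81, and the minimum in each library leaves Mir196a-2 out. Mir615 and Mir196a-2 stayed past 2-fold under each of the 4 other settings tried (totals alone, DESeq2 size factors, the both-strand column and 1 added to each count), and Mir10a, Mir10b and Mir196b stayed within it. The members' both-strand counts equal their own-strand counts. Totals alone adds 0.33 to every log2 ratio, which moves these ratios away from the 2-fold limits. Such settings were weak checks of the calls. With 1 library left out, each level and share is the other library's value as given above. Mir196a-1 and Mir196a-2, whose counts were 0 to 11, are limited by the loss of multi-mapped reads, which more depth would not return.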
